A study of Homo sapiens with 4 samples.

Results

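The genes described here are 49 genes of cell cycle and mitosis, listed by symbol, out of the 60234 genes of a table of read counts. They fall into 15 genes of S phase, 25 genes of G2 and mitosis (G2/M), 6 cyclins D and kinases of G1, and 3 inhibitors of cyclin-dependent kinases (CDKs). All 49 were found in the table, and all 49 passed the filter on low values used below, a mean CPM (counts per 1e+06 reads) of at least 1 over the 4 libraries, which 17199 genes passed.

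The cells came from an NKX2.5(eGFP/w) human embryonic stem cell line, in which green fluorescent protein (GFP) reports NKX2-5, a transcription factor of heart muscle and its progenitors. Spin embryoid bodies were taken through cardiac differentiation with 1 µM retinoic acid (RA), or with its solvent DMSO as the control (CTR), from day 4 to day 7, and cells were sorted on GFP at day 31. This gave 4 groups, all from the same reporter line: RA GFP-positive, CTR GFP-positive, RA GFP-negative and CTR GFP-negative. There was 1 library per group, so there were no replicates, no test between groups was made, and every interval given is a 95% interval that covers counting error only, without the variation between cultures. The labels do not say whether RA and CTR came from the same batch of embryoid bodies. With 1 library per group, the agent and the culture cannot be told apart.

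Depth was between 26222787 and 28643091 reads in 3 libraries and 4371101 reads in the CTR GFP-negative library, so that the other libraries were 5.999 to 6.553 times as deep. A count of 0 allows up to 0.639 CPM in that library and between 0.105 and 0.117 CPM in the other 3. Between the fractions NKX2-5 itself differed by 40.9-fold in CTR and 47.5-fold in RA, higher in the cells labelled GFP-positive. All 10 cardiomyocyte markers examined, among them TNNT2, MYH6 and TTN, were at least 2-fold higher in the GFP-positive library of both treatments. The GFP-negative cells were labelled only by the absence of the reporter, and their libraries held the markers of several cell types, with fibroblast and stroma markers at the highest sum.

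Cells copy their DNA in S phase and divide in mitosis, and many genes needed for each step are transcribed just before it. Genes of S phase are switched on at the end of G1 by E2F factors once cyclin D and cyclin E kinases have phosphorylated the retinoblastoma protein. Genes of G2 and mitosis are switched on later by the MYB-MuvB complex, by FOXM1 and by NF-Y. Heart muscle cells divide in the embryo and largely leave the cell cycle as they mature, while fibroblasts, progenitors and many epithelial cells keep dividing in culture. Most mitotic transcripts are scarce in cells that have left the cycle.

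Promoter sequences of 4 members are shown as examples of the elements by which these classes are usually told apart. The 250 bases before the RefSeq gene start were searched on both strands for TTTGAA, the core of the cell cycle homology region (CHR) bound by MuvB, for CCAAT, the NF-Y box, and for TTCCCGC or TTGGCGC, 2 forms of the E2F site. Shown here are the 2 G2/M and 2 S phase members with the highest mean CPM among those that held the motif of their class, so that better expressed members without it, such as CENPF and CCNB1, are passed over, in GRCh37 coordinates, 5′ to 3′ on the strand of the gene. TOP2A lies on the minus strand and its whole region, chr17:38574149-38574398, is given first, with CHR and CCAAT matches of either strand in capitals. MKI67, also on the minus strand, is given over chr10:129924688-129924937 with the same capitals, and its last CHR match shares 1 base with a CCAAT match, so that they print as 1 run.
TOP2A: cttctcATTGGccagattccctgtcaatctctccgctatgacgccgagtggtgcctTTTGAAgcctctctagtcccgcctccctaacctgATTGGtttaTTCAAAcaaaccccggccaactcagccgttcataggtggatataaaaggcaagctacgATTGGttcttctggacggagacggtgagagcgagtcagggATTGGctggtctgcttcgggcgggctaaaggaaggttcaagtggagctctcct
MKI67: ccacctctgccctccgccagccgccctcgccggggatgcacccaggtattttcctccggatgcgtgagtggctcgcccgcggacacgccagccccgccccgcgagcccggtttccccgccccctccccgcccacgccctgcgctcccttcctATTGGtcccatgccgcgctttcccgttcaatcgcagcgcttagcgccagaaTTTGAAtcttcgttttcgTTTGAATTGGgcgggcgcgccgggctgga

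For the S phase pair, MCM3 and MCM7, part or all of the region lies in exons of the gene models used here, and only 30 bases around each E2F match are shown, with the match in capitals. The windows are chr6:52149696-52149725 and chr6:52149546-52149575 for MCM3 and chr7:99699190-99699219 for MCM7, all on the minus strand. No CHR match was found in the 250 bases of either gene, and no E2F match in those of TOP2A or MKI67.
MCM3, distal: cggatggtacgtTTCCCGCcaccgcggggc
MCM3, proximal: taacctttggtgGCGGGAAgagttcggaag
MCM7: ccagctcggaccGCGGGAAacccggcgcct

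Over the lists, the CHR core was found in 10 of the 19 G2/M members with a RefSeq promoter entry (52.6%) and in 1 of the 12 S phase members (8.33%), RRM1. An E2F site was found in 8 of the 12 S phase members (66.7%) and in 2 of the 19 G2/M members (10.5%), CDK1 and NUSAP1. Of all 27305 genes with a RefSeq promoter entry, not limited to those of the count table, 16.1% held the CHR core, 9.40% an E2F site and 37% CCAAT. A gene with more than 1 entry was counted where any of them held the motif. The NF-Y box was found in 17 of 19 G2/M members and in 9 of 12 S phase members, so it did not part the lists as the other motifs did. A match is a run of letters and not a measured binding site, and a gene without a match lacks only these letters in this window.

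Among the 49, the sums of the S phase members lay closer together over the 4 libraries than those of the G2/M members. The 15 S phase genes summed to 346 CPM in RA GFP-positive, 321 in CTR GFP-positive, 439 in RA GFP-negative and 388 in CTR GFP-negative cells. The 25 G2/M genes summed to 212, 124, 546 and 369 CPM in the same order. The G2/M sum was therefore 0.612 and 0.387 of the S phase sum in the RA and CTR GFP-positive libraries, and 1.24 and 0.951 of it in the RA and CTR GFP-negative libraries. The S phase sum too was lower in GFP-positive cells, at 0.829 of the GFP-negative one in CTR (0.788 to 0.872) and 0.788 of it in RA (0.766 to 0.810). In bulk libraries such as these, fewer dividing cells and less of a transcript per dividing cell cannot be told apart.

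**Figure D1:**
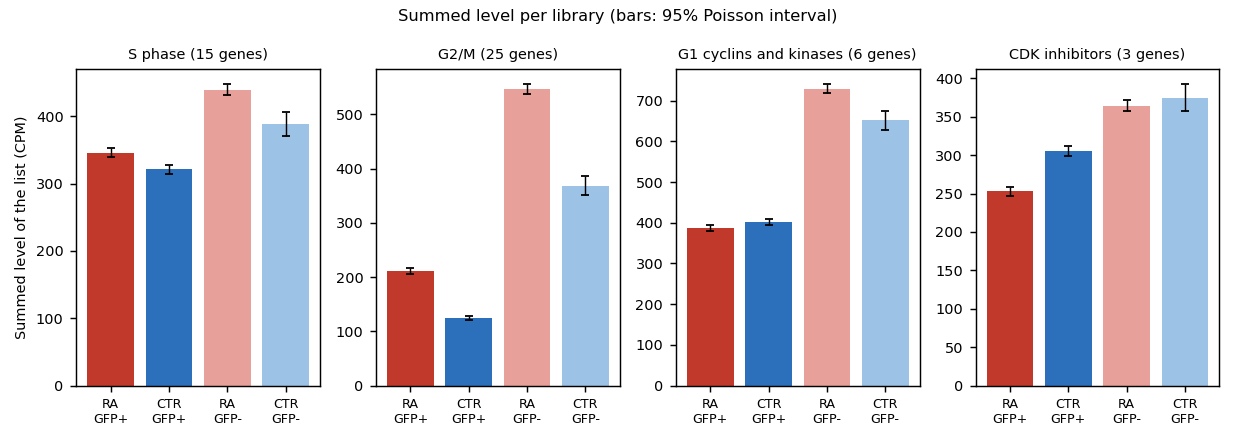
Summed level of each list of cell cycle genes in the 4 libraries, in CPM on a linear axis that starts at 0, with 1 bar per library and its 95% Poisson interval. The G2/M panel runs from 124 CPM in CTR GFP-positive to 546 CPM in RA GFP-negative cells, while the S phase panel spans only 321 to 439 CPM.

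The lists also differed in level. Per kilobase of exon, the highest members were CDKN1A, which encodes p21, with 63.5 to 105 CPM per kb over the 4 libraries, CCND1, with 20.4 to 58.0, and PCNA, the sliding clamp of DNA polymerase, with 19.3 to 38.4. No G2/M gene passed 14.8 CPM per kb in any library, the level of UBE2C in RA GFP-negative cells. The lowest level of any member was that of CCNE2 in CTR GFP-negative cells, where it had 1 read. The exon length used is that of all annotated exons joined, which lowers genes with many alternative exons.

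**Figure D2:**
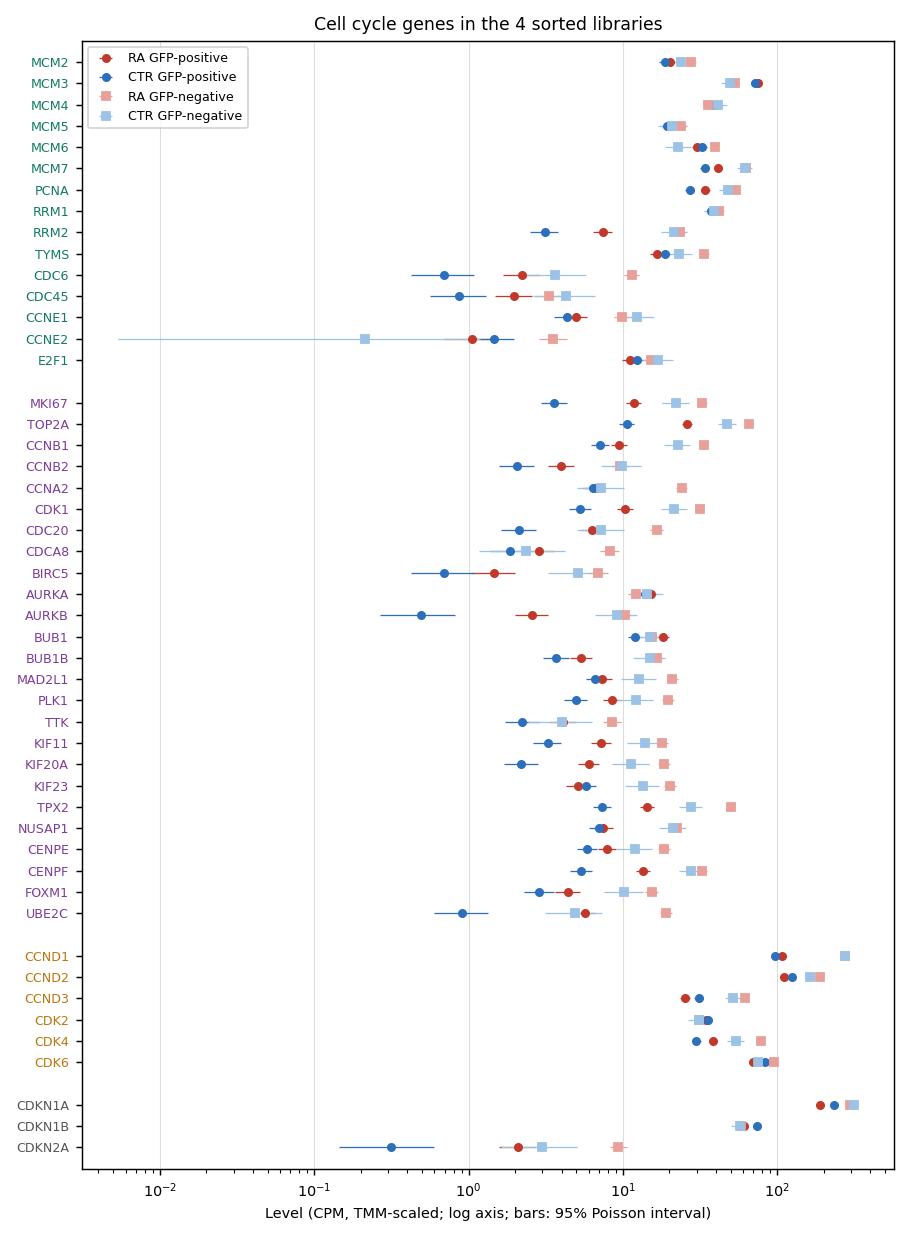
Level of each of the 49 genes in the 4 libraries, in TMM-scaled CPM on a log axis, with circles for GFP-positive and squares for GFP-negative cells, red shades for RA and blue shades for CTR, and bars for 95% Poisson intervals. Most G2/M genes, such as MKI67, lie lowest in CTR GFP-positive, then in RA GFP-positive cells, and highest in the GFP-negative libraries. The 4 levels of each of MCM2 to MCM6 lie closer together than those of MKI67, with MCM6 from 22.8 to 39.2 CPM and MCM3 from 49.4 to 75.4 CPM.

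The first comparison asks how the cell cycle genes differed between GFP-positive cells that had been given RA and those that had not. Most G2/M genes were higher after RA and most S phase genes were level. Of the 25 G2/M genes, 24 were higher after RA, where 52.5% of all genes tested were higher, and the exception was KIF23. The sign of AURKA and CCNA2 turned when reads were thinned to the smallest library, a thinning made in a single random draw. A difference is called here when log2(CPM + 1) differs by at least 1 between the libraries, a scale that understates the change of genes at low CPM.

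By that rule 7 of the 25 G2/M genes were at least 2-fold higher after RA, as were 1 of the 15 S phase genes and 1 of the 3 inhibitors, and no member was 2-fold lower. Over all genes tested 4.91% were at least 2-fold higher and 1.82% at least 2-fold lower. The median log2 difference was 0.66 for G2/M, 0.09 for S phase, −0.10 for G1 and 0.02 for all genes tested. The sum over the G2/M genes was 1.70 times that of CTR (1.63 to 1.78), and the sum over the S phase genes 1.08 times (1.05 to 1.11). With a pseudocount of 5 CPM in place of 1, none of the 49 passed 2-fold, though all 9 kept their direction, and the G2/M median became 0.34. The S phase median lay between 0.02 and 0.09 over the alternatives tried.

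UBE2C, the ubiquitin-conjugating enzyme of the anaphase-promoting complex, had 151 reads in RA and 26 in CTR GFP-positive cells, or 5.65 against 0.907 CPM. The ratio was 6.22 (4.09 to 9.83), and the log2 difference, 1.80, was the highest of the 49 and the 240th highest of the genes tested. It stood at 18.98 CPM in RA and 4.90 CPM in CTR GFP-negative cells, so the RA GFP-positive level was close to that of the CTR GFP-negative library. CDC20, the activator of the same complex at anaphase, was 2.95-fold higher (2.19 to 4.02), at 6.28 against 2.13 CPM.

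MKI67, the source of the Ki-67 antigen used to mark dividing cells, stood at 11.8 CPM in RA GFP-positive, 3.59 in CTR GFP-positive, 32.5 in RA GFP-negative and 21.9 in CTR GFP-negative cells. Its ratio of RA to CTR in GFP-positive cells was 3.28 (2.62 to 4.13). TOP2A, the topoisomerase that untangles sister chromatids, stood at 25.9, 10.6, 65.3 and 47.1 CPM in the same order, a ratio of 2.45 (2.14 to 2.81). For both genes the order of the libraries was the same, with CTR GFP-positive lowest and RA GFP-negative highest, and the intervals of the 4 levels did not overlap.

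Chromosome passengers, a kinesin and a kinetochore protein were higher after RA, though not all of them were called. AURKB, the kinase of the chromosomal passenger complex, had 69 reads in RA and 14 in CTR GFP-positive cells, a ratio of 5.28 (2.94 to 10.2), whereas its partners BIRC5 and CDCA8 had ratios of 2.09 (1.19 to 3.78) and 1.54 (1.07 to 2.23) and were not called on the log2 scale. The log2 difference of BIRC5 moved from 0.53 to 0.02 when reads were thinned to the smallest library. KIF20A, a kinesin of cytokinesis, was 2.74-fold higher (2.03 to 3.72). CENPF, a kinetochore protein, was 2.51-fold higher (2.07 to 3.05).

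Between the called genes and the level ones stood a middle group of G2/M genes. KIF11, the motor that separates the spindle poles, had a ratio of 2.22 (1.73 to 2.88), CDK1, the mitotic kinase, 1.95 (1.59 to 2.39), TPX2, an activator of AURKA, 1.94 (1.64 to 2.31), and CCNB2, a partner of CDK1, 1.93 (1.39 to 2.69). With reads thinned in that single random draw, the log2 difference of KIF11 moved from 0.95 to 0.06. CCNB1, the main mitotic cyclin, reached 1.329 (1.10 to 1.61). FOXM1, a transcription factor of the G2/M genes, reached 1.54 (1.15 to 2.07), and PLK1, a kinase of mitotic entry, 1.72 (1.39 to 2.14). In all, the ratio's interval lay above 1 for 20 of the 25 G2/M genes, as it did for 33.3% of all genes tested.

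The other 5 G2/M genes had intervals that held 1. CCNA2, the cyclin of S phase and G2, had 179 reads in RA and 182 in CTR GFP-positive cells, a ratio of 1.05 (0.853 to 1.30). AURKA, the centrosome kinase, had 404 and 401 reads and a ratio of 1.08 (0.938 to 1.24). MAD2L1, of the spindle checkpoint, NUSAP1, a spindle protein, and KIF23, a kinesin of cytokinesis, had ratios of 1.11, 1.08 and 0.890. With thinned reads the differences of AURKA and CCNA2 changed sign, so neither has a direction here.

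Most S phase genes differed little between the RA and CTR GFP-positive libraries. The ratios of MCM2, MCM3, MCM4, MCM5 and MCM6, subunits of the replicative helicase, lay between 0.922 and 1.07, and all 5 intervals held 1. MCM3, the best expressed of them, stood at 75.4 CPM in RA and 71.7 CPM in CTR GFP-positive cells. MCM7 and PCNA were slightly higher after RA, with ratios of 1.22 (1.12 to 1.328) and 1.26 (1.15 to 1.39).

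The S phase genes that differed more were at low levels. RRM2, the cell cycle regulated subunit of ribonucleotide reductase, stood at 7.44 CPM in RA GFP-positive, 3.11 in CTR GFP-positive, 23.6 in RA GFP-negative and 21.5 in CTR GFP-negative cells, a ratio of 2.40 (1.86 to 3.11) between RA and CTR in GFP-positive cells. The partner subunit RRM1 stood at 39.8 and 37.3 CPM in the GFP-positive libraries, a ratio of 1.07 (0.979 to 1.16). CDC6, which loads the helicase at origins, had 59 reads in RA and 20 in CTR GFP-positive cells, a ratio of 3.16 (1.88 to 5.54), and CDC45, a helicase cofactor, had 53 and 25 reads, a ratio of 2.27 (1.39 to 3.81). Neither CDC6 nor CDC45 was called on the log2 scale, at 0.92 and 0.67, and these differences moved to 0.04 and −0.09 when reads were thinned to the smallest library. TYMS, CCNE1, CCNE2 and E2F1 had intervals that held 1.

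Among G1 genes, CDK4 was 1.28-fold higher after RA (1.17 to 1.41) and CCND1, or cyclin D1, 1.10-fold (1.05 to 1.16), while CCND2, CCND3 and CDK6 had ratios of 0.891 (0.848 to 0.935), 0.816 (0.737 to 0.903) and 0.838 (0.788 to 0.890). CDK2 was level, with a ratio of 0.981 (0.896 to 1.07). Of the inhibitors, CDKN1A and CDKN1B, which encode p21 and p27, were lower after RA, with ratios of 0.822 (0.793 to 0.853) and 0.820 (0.768 to 0.875). CDKN1A stood at 190.2 CPM in RA GFP-positive, 231 in CTR GFP-positive, 297 in RA GFP-negative and 314 in CTR GFP-negative cells. CDKN2A, the locus of p16INK4A and p14ARF, went the other way, with 56 reads in RA and 9 in CTR GFP-positive cells, a ratio of 6.67 (3.27 to 15.3). CDKN2A had the highest ratio of the 49, at levels of only 2.09 and 0.314 CPM.

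Markers of several other cell types, though not of all those examined, were also higher after RA in GFP-positive cells. All 8 fibroblast and stroma markers were at least 2-fold higher after RA in GFP-positive cells, and their summed level was 15173 CPM against 3967 in CTR, a ratio of 3.82. The 10 cardiomyocyte markers summed to 17289 CPM after RA and 20683 CPM in CTR, a ratio of 0.836. Markers of gut and liver endoderm summed to 71.7 and 26.0 CPM, and those of pluripotent cells to 4.52 and 0.907 CPM, with 6 of 7 and 4 of 4 tested markers higher after RA. Smooth muscle markers summed to 1057 and 476 CPM, neural and eye markers to 427 and 346 CPM, and endothelial markers to 17.2 and 16.9 CPM. Higher after RA were 4 of the 4 smooth muscle markers, 5 of the 6 endothelial markers, whose sum was level at a ratio of 1.02 (0.895 to 1.16), and 3 of the 6 neural and eye markers tested, with a median log2 difference of −0.06. FOXA2, CDX2, HNF4A, VWF, ESAM and NANOG had no read in CTR GFP-positive cells, and SOX1 had none in RA GFP-positive cells. The part of these cell types in the cell cycle differences was not tested.

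**Figure D3:**
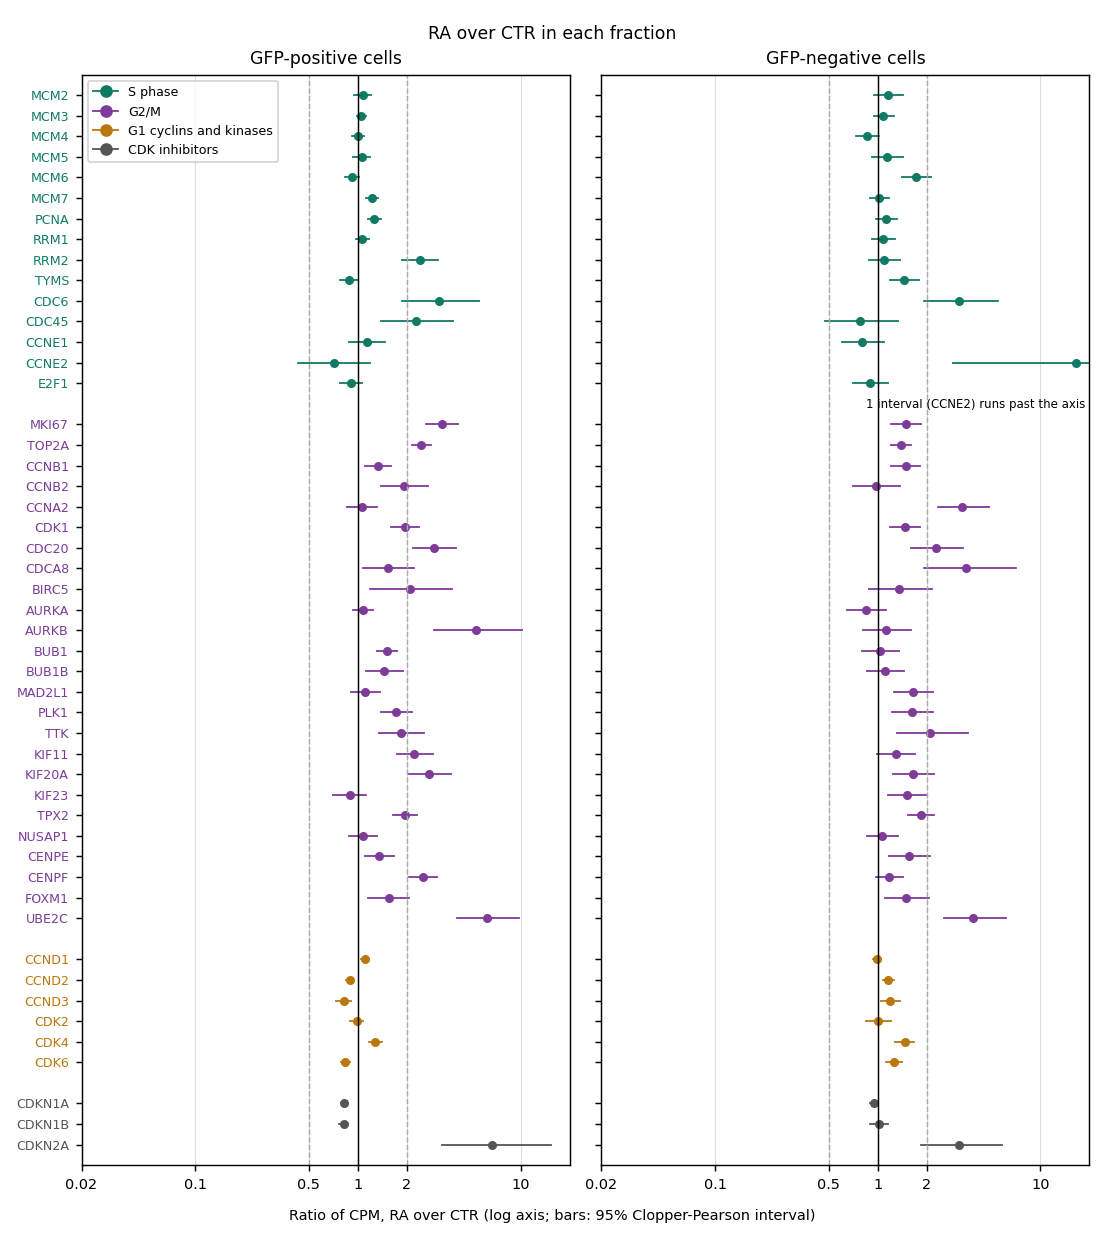
Ratio of CPM, RA over CTR, for each of the 49 genes in GFP-positive cells (left) and GFP-negative cells (right), on a log axis, with 95% Clopper-Pearson intervals and dashed lines at a 2-fold difference. In GFP-positive cells 24 of the 25 G2/M ratios lie above 1, AURKA and CCNA2 with a sign that turned with thinned reads, and MCM2 to MCM6 lie near 1, and in GFP-negative cells the interval of CCNE2, which had 1 read in CTR, runs past the axis.

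The same question was asked of the GFP-negative cells. Here too most G2/M genes were higher after RA, 23 of the 25, where 55.5% of all genes tested were higher and 44.5% lower, and the 2 exceptions were AURKA and CCNB2, while the sign of BUB1, CCNB2 and NUSAP1 turned under other scalings or with thinned reads. At least 2-fold higher were 4 of the 25 G2/M genes, 2 of the 15 S phase genes and 1 of the 3 inhibitors, beside 7.34% of all genes tested, and no member was 2-fold lower, beside 5.35%. The median log2 difference was 0.55 for G2/M, 0.13 for S phase, 0.23 for G1 and 0.07 for all genes tested. The S phase median moved to −0.003 when libraries were scaled by size without the 10 most abundant and the mitochondrial genes, so it has no direction here.

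CCNA2, level between treatments in GFP-positive cells, stood at 24.0 CPM in RA and 7.24 CPM in CTR GFP-negative cells, a ratio of 3.32 (2.35 to 4.83). UBE2C was again among the highest, with a ratio of 3.87 (2.55 to 6.17). CDCA8 followed with 3.49 (1.91 to 7.11), on 11 reads in CTR, and CDC20 with 2.29 (1.61 to 3.35), on 34 reads. CCNA2 and UBE2C were the 2 members that stayed past 2-fold under every scaling and pseudocount tried.

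Several other G2/M genes had smaller ratios than in GFP-positive cells, a contrast that was not tested. MKI67 had a ratio of 1.48 (1.21 to 1.84) and TOP2A one of 1.39 (1.21 to 1.60). AURKB, KIF11 and CENPF, all over 2-fold by ratio in GFP-positive cells, had ratios of 1.13 (0.815 to 1.60), 1.29 (0.993 to 1.70) and 1.18 (0.976 to 1.43), with intervals that held 1. The interval lay above 1 for 16 of the 25 G2/M genes, beside 30.3% of all genes tested, in a comparison whose CTR library had the fewest reads.

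Among S phase genes, CDC6 had 292 reads in RA and 17 in CTR GFP-negative cells, a ratio of 3.14 (1.93 to 5.47). CCNE2, a cyclin E, had 91 reads in RA and 1 in CTR GFP-negative cells, a ratio of 16.7 whose counting interval ran from 2.91 to 665. MCM6 was 1.72-fold higher (1.41 to 2.12) and TYMS, the thymidylate synthase, 1.45-fold (1.19 to 1.79). The remaining 11 S phase genes had intervals that held 1, with CCNE1 and E2F1 at 0.801 and 0.901. MCM2 stood at 27.5 CPM in RA and 23.6 CPM in CTR GFP-negative cells, a ratio of 1.16 (0.952 to 1.43).

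CDK4 was 1.47-fold higher after RA in GFP-negative cells (1.29 to 1.68), near its ratio in GFP-positive cells. CCND2, CCND3 and CDK6, lower after RA in GFP-positive cells, were higher in GFP-negative cells, with ratios of 1.16 (1.08 to 1.26), 1.19 (1.04 to 1.37) and 1.26 (1.12 to 1.41). CCND1 was level at 273 and 276 CPM. CDKN2A was 3.14-fold higher (1.83 to 5.83), on 240 and 14 reads, while CDKN1A and CDKN1B had ratios of 0.947 and 1.01.

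The makeup of the GFP-negative libraries differed as well. Endoderm markers summed to 779 CPM in RA and 101 CPM in CTR, fibroblast markers to 61658 and 32119 CPM, neural and eye markers to 198 and 449 CPM, and cardiomyocyte markers to 517 and 983 CPM. Smooth muscle markers summed to 1387 and 731 CPM, endothelial markers to 288 and 300.3 CPM, and pluripotent cell markers to 55.7 and 14.7 CPM. FOXA2, POU5F1 and NANOG had no read in CTR GFP-negative cells. The part of these differences in the cell cycle genes was not tested.

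The next comparison asks how the fractions differed within each treatment, and it is here that the medians of the G2/M genes were farthest from 0. In CTR all 25 G2/M genes were lower in the GFP-positive library, beside 46.8% of all genes tested, with a sign that turned under another scaling or with thinned reads for AURKA, and 18 of the 25 were at least 2-fold lower, beside 15.1%. At least 2-fold lower were also 4 of the 15 S phase genes, 1 of the 6 G1 genes and 1 of the 3 inhibitors, and 1 S phase gene, CCNE2, was 2-fold higher, beside 13.3% of all genes. The median log2 difference was −1.54 for G2/M, −0.32 for S phase, −0.56 for G1 and 0.05 for all genes tested. With a pseudocount of 5 CPM the G2/M median became −0.95. The share of reads from mitochondrial genes differed between the same libraries, at 14.1% in CTR and 14.9% in RA GFP-positive cells against 7.48% in CTR and 5.56% in RA GFP-negative cells. Over the alternatives tried, scaling without mitochondrial genes included, the G2/M median lay between −1.75 and −0.95 in CTR and between −1.48 and −1.05 in RA.

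Lowest was AURKB, with 14 reads or 0.489 CPM in GFP-positive and 43 reads or 9.16 CPM in GFP-negative cells of CTR, so that the GFP-positive level was 5.34% of the GFP-negative one. MKI67 in GFP-positive cells was at 16.4% of its GFP-negative level, and RRM2, CENPF and KIF20A had ratios of 0.144 (0.107 to 0.194), 0.194 (0.153 to 0.247) and 0.195 (0.133 to 0.286). The median over the 25 G2/M genes was 28.0%, in a range from 5.34% to 98.1%. The interval lay below 1 for 21 of the 25 G2/M genes, beside 32.0% of all genes tested and 35.7% with an interval above 1. The 4 genes with intervals that held 1 were AURKA at 0.981 (0.756 to 1.29), CCNA2 at 0.877, BUB1, a kinase of the spindle checkpoint, at 0.808, and CDCA8 at 0.790. BUB1B, the checkpoint partner of BUB1, was by contrast at 0.248 (0.182 to 0.341).

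S phase genes split by gene in the same comparison. Of the 15, 12 were lower in GFP-positive cells, beside 46.8% of all genes tested, and 3 were higher. The interval lay below 1 for 8 of the 15, beside 32.0% of all genes tested, and above 1 for 3, beside 35.7%. RRM2, CDC6, CDC45 and CCNE1 were 2-fold lower in GFP-positive cells of CTR, at ratios from 0.144 to 0.350. MCM3 and MCM6 were higher in GFP-positive cells, with ratios of 1.45 (1.27 to 1.67) and 1.43 (1.17 to 1.77). MCM4, MCM5, RRM1 and TYMS had intervals that held 1, and MCM7 and PCNA had ratios of 0.552 (0.483 to 0.632) and 0.567 (0.488 to 0.661). CCNE2, with 42 reads in the GFP-positive library and 1 in the GFP-negative one, had a ratio of 6.88 (1.17 to 278).

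CCND1 was the G1 gene most unlike between the fractions, at 97.3 CPM in CTR GFP-positive and 276 CPM in CTR GFP-negative cells, a ratio of 0.352 (0.330 to 0.377). CDK2 and CDK6 were level or slightly higher in GFP-positive cells, at 1.14 (0.957 to 1.36) and 1.10 (0.986 to 1.24). CDKN1B was 1.30-fold higher (1.14 to 1.48) and CDKN1A lower, at 0.736 (0.696 to 0.780). CDKN2A had 9 reads in the GFP-positive and 14 in the shallower GFP-negative library, a ratio of 0.105 (0.0402 to 0.261).

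After RA the contrast of the fractions kept its direction for most members. Of the 25 G2/M genes 23 were lower in GFP-positive cells, beside 48.8% of all genes tested, and 22 were at least 2-fold lower, beside 13.4%. At least 2-fold lower were also 3 of the 15 S phase genes, 3 of the 6 G1 genes and 1 of the 3 inhibitors, and no member was 2-fold higher, beside 10.2%. The median log2 difference was −1.39 for G2/M, −0.53 for S phase, −0.89 for G1 and 0.02 for all genes tested. Both libraries of this comparison were deep, and the interval lay below 1 for 23 of the 25 G2/M genes, beside 38.4% of all genes tested.

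AURKA and BUB1 were the 2 exceptions, higher in GFP-positive cells of RA, as 51.2% of all genes tested were, and with an interval above 1, as 39.7% were, at ratios of 1.25 (1.08 to 1.45) and 1.19 (1.04 to 1.36). AURKA was thus nearly flat over the 4 libraries, at 15.1 CPM in RA GFP-positive, 14.0 in CTR GFP-positive, 12.1 in RA GFP-negative and 14.3 in CTR GFP-negative cells. BUB1 stood at 18.2, 12.04, 15.4 and 14.9 CPM in the same order, and its ratio of RA to CTR in GFP-positive cells was 1.52 (1.32 to 1.74). The AURKA and BUB1 levels thus spanned a narrower range over the 4 libraries than those of AURKB and BUB1B.

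The lowest ratio in RA was that of CDC6, at 0.194 (0.144 to 0.257), and BIRC5, or survivin, followed at 0.211 (0.145 to 0.3004). MKI67 in GFP-positive cells was at 36.2% of its GFP-negative level, and the median over the 25 G2/M genes was 34.7%, from 21.1% to 125%. CCNA2, level between the fractions of CTR, had a ratio of 0.279 (0.235 to 0.330) in RA. Of the 15 S phase genes 13 were lower in GFP-positive cells of RA, beside 48.8% of all genes tested. The interval lay below 1 for 12 of them, beside 38.4%. MCM3 was again higher in GFP-positive cells, at 1.41 (1.31 to 1.51), and MCM4 at 1.10 (1.01 to 1.21), while MCM6 was lower at 0.768 (0.699 to 0.843). CCND1, CCND3 and CDK4 were at 0.394, 0.408 and 0.486 of their GFP-negative levels.

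**Figure D4:**
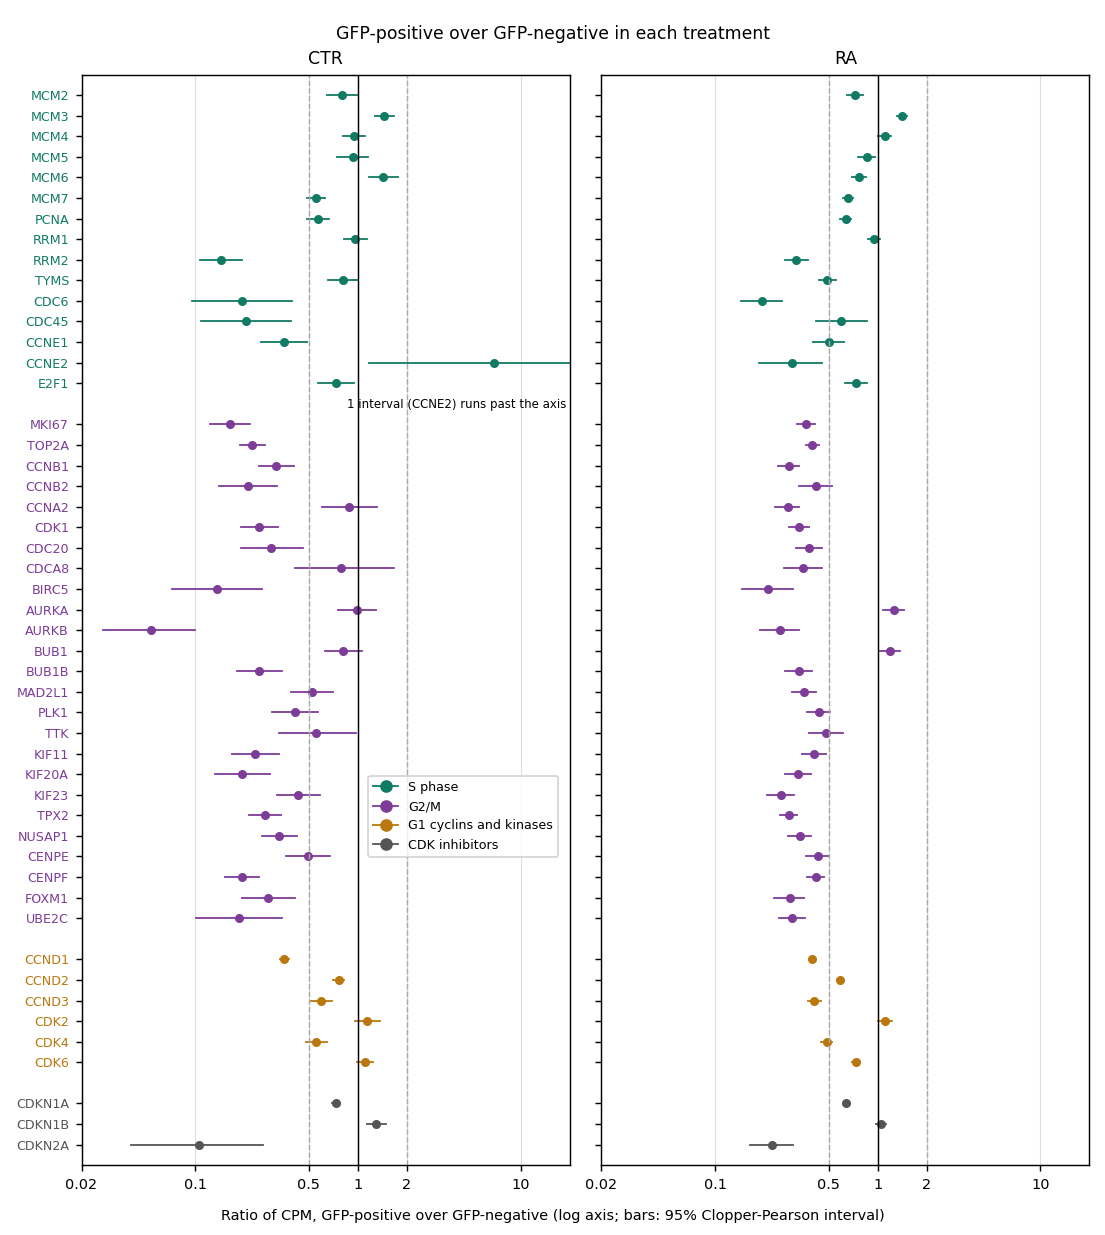
Ratio of CPM, GFP-positive over GFP-negative, for each of the 49 genes in CTR (left) and RA (right), on a log axis, with 95% Clopper-Pearson intervals and dashed lines at a 2-fold difference. Nearly all G2/M ratios lie left of 1, AURKA and BUB1 lie at or above it in RA, and MCM3 lies right of 1 in both treatments.

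The level that genes kept in GFP-positive cells was set beside that of markers of other cell types. In CTR the median marker of fibroblasts in GFP-positive cells was at 8.97% of its GFP-negative level, that of endothelium at 1.74%, that of endoderm at 6.93%, that of neural and eye cells at 5.95% and that of pluripotent cells at 9.83%, where the endoderm median is over 6 of 7 markers and the pluripotent one over 3 of 5, those with reads in the CTR GFP-negative library. In RA these medians were 16.2%, 6.24%, 4.86%, 18.7% and 10.1%. The medians of the G2/M genes, 28.0% and 34.7%, were above those of these 5 lists and below those of the 4 smooth muscle markers, at 38.3% in CTR and 180.2% in RA. The S phase medians, 79.4% and 65.6%, were above the smooth muscle median in CTR and below it in RA. Single genes crossed this order, as AURKB in CTR at 5.34% was below the fibroblast median. PDGFRA among the fibroblast markers was higher in GFP-positive cells in both treatments. Of the 6 neural and eye markers tested, 2 were higher there in both treatments and 4 lower. The higher ones were NES, at 160% in CTR and 236% in RA, and MITF, at 273% and 463%. The summed neural and eye markers of GFP-positive cells were 0.770 of the GFP-negative sum in CTR and 2.16 times it in RA. APOA1 of the endoderm list was at 133% in CTR (86.2% to 215%). Whether the reads of G2/M genes in the GFP-positive libraries came from cardiomyocytes was not tested.

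**Figure D5:**
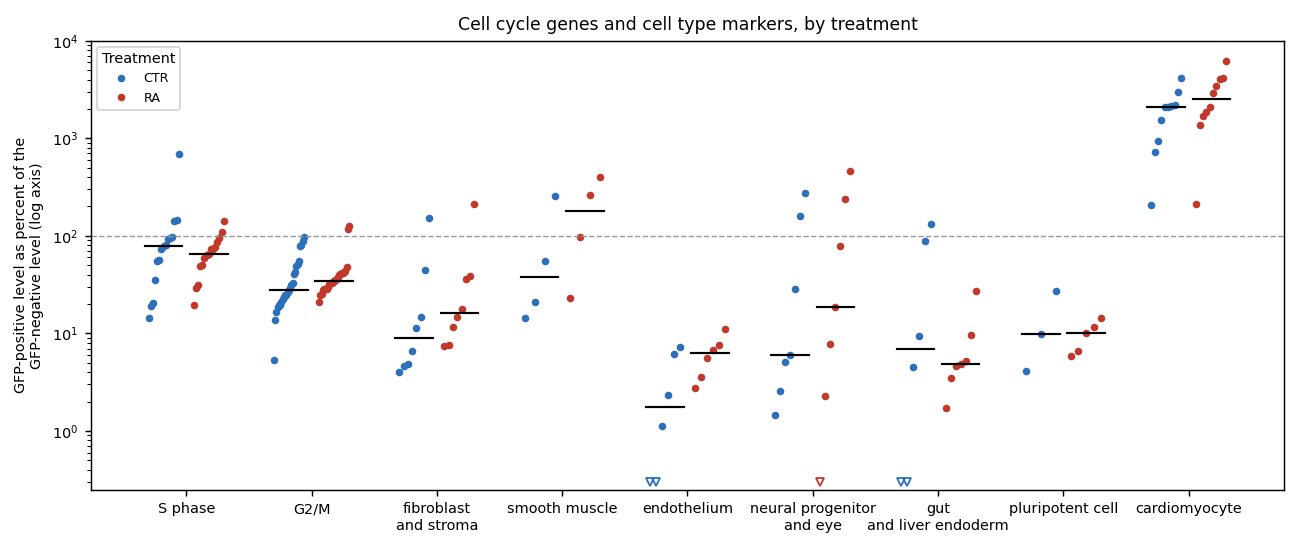
Level in GFP-positive cells as a percentage of the level in GFP-negative cells for the genes of each list, in CTR and RA, on a log axis, with 1 point per gene, a bar at the median of each list, and open triangles for genes with no read in GFP-positive cells. The medians of the G2/M list, 28.0% in CTR and 34.7% in RA, lie above those of the fibroblast, endothelial, neural, endoderm and pluripotent lists and below those of the S phase, smooth muscle and cardiomyocyte lists.

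Genes of the same pathway outside the 49 were listed in the same way, as 29 other S phase genes, 35 other G2/M genes and 26 other regulators. The sums of the wider G2/M list lay closer together than those of the 25 G2/M members, at 887 CPM in RA GFP-positive, 833 in CTR GFP-positive, 1127 in RA GFP-negative and 953 in CTR GFP-negative cells. Its sum in GFP-positive cells was 1.06 times as high in RA as in CTR, and that of the GFP-positive library was 0.874 of the GFP-negative one in CTR and 0.787 of it in RA. The other S phase genes summed to 453, 459, 515 and 413 CPM in the same order of libraries.

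In GFP-positive cells 5 of the 35 other G2/M genes and none of the 29 other S phase genes were at least 2-fold higher after RA, beside 4.91% of all genes tested, with median log2 differences of 0.57 and 0.06. In GFP-negative cells the order was the opposite, with 4 of 35 and 7 of 29 at least 2-fold higher, beside 7.34%, and medians of 0.21 and 0.44, and 1 of the 35 was 2-fold lower, beside 5.35%. Between the fractions, 15 of the 35 other G2/M genes and 5 of the 29 other S phase genes were 2-fold lower in GFP-positive cells of CTR, beside 15.1%, and 11 and 8 were in those of RA, beside 13.4%. At least 2-fold higher in GFP-positive cells of CTR were 1 of the 35, 2 of the 29 and 2 of the 26 other regulators, beside 13.3%, and none of the 3 lists had such a gene in RA, beside 10.2%. The medians were −0.81 and −0.12 in CTR, and −0.66 and −0.62 in RA, so the lists lay apart in CTR and close together in RA. Of the 26 other regulators, 2 were at least 2-fold higher and 1 lower after RA in GFP-positive cells, beside 4.91% and 1.82%, and 1 was higher in GFP-negative cells, beside 7.34%, shares near those of all genes. In the GFP-positive library of CTR and RA 7 and 9 of them were 2-fold lower, beside 15.1% and 13.4%.

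The genes at the ends of these wider lists, taken by the log2(CPM + 1) difference, included several regulators. By ratio alone some genes at lower CPM lay further out, among them CKAP2L, chosen after its values were seen, at 6.58 (2.94 to 17.3) for RA over CTR in GFP-positive cells, on 7 reads in CTR. On the log2 scale the highest there were KIF4A, a kinesin of chromosomes, with a ratio of 4.36 (2.90 to 6.73), and MYC, the growth factor responsive transcription factor, with 3.32 (2.41 to 4.63), and the lowest were MYCN, at 0.367 (0.3004 to 0.446), and CDCA2, which recruits a phosphatase to chromosomes, at 0.442 (0.328 to 0.589). In GFP-negative cells the highest were LIN9, a core MuvB subunit, at 5.02 (2.60 to 11.1), and DSCC1, of a clamp loader, at 4.21 (1.996 to 10.6), on 9 and 7 reads in CTR. The lowest there were CDCA3, at 0.443 (0.327 to 0.605), and E2F8, a repressor of the E2F family, at 0.479 (0.360 to 0.643).

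Between the fractions of CTR, LIN9 and CDCA2 were highest in GFP-positive cells, with ratios of 9.54 (4.99 to 21.0) and 3.86 (1.83 to 9.76), and CDKN2B, which encodes p15, and MYC were lowest, with 0.114 (0.0909 to 0.143) and 0.0979 (0.0681 to 0.140). Between the fractions of RA, BTG2, an antiproliferative gene, and WEE1, the kinase that holds CDK1 inactive, were highest on the log2 scale, with ratios of 1.95 (1.90 to 1.998) and 1.75 (1.65 to 1.86). MYCN and MYBL2, the B-MYB factor that activates G2/M genes, were lowest on the log2 scale, with ratios of 0.0984 (0.0820 to 0.117) and 0.147 (0.116 to 0.184). MYCN stood at 5.20 CPM in RA GFP-positive, 14.2 in CTR GFP-positive, 52.8 in RA GFP-negative and 72.8 in CTR GFP-negative cells, so it was lower after RA in both fractions, unlike the G2/M genes.

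Some members share exon sequence with other genes, and the reads were counted without regard to strand, so that their counts are uncertain. In the annotation used here, 86.8% of the exon bases of NUSAP1 are shared with other genes on the same strand. Genes on the other strand cover 47.9% of the exon bases of TYMS, 44.2% of those of CDK4, 37.1% of those of CCNE2 and 23.6% of those of MCM2. For CDKN2A the share is 15.3%, with CDKN2B-AS1, and for FOXM1 15.9%, with ITFG2. UBE2C, MKI67, TOP2A, AURKB, CDC20 and CENPF, at least 2-fold higher after RA in GFP-positive cells, had no such overlap, whereas KIF20A, also called there, shares 5.35% of its exon bases with BRD8 and CDC23 on the other strand. UBE2C lies at chr20:44441215-44445596 on the plus strand.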

How the data were processed

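Strand-specific libraries of total RNA were sequenced as paired reads of 75 bases. According to the methods and the submitters' processing notes, the authors trimmed reads with SICKLE 1.33, aligned unique reads to hg19 with GSNAP, used SAMtools 0.1.18, and counted without strand with HTSeq 0.6.1p1. The deposited values are raw read counts per Ensembl gene, in whole numbers, and the Ensembl release is not given in the sources used here.

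TMM factors of the 4 libraries (edgeR 4.0.16, R 4.3.3) gave CPM, which were compared as log2(CPM + 1) without a test. CPM carry exact Poisson intervals and ratios Clopper-Pearson intervals (scipy 1.17.1). A gene was tested at a mean of 1 CPM and called at 2-fold. In simulated counts of 17199 genes, 94.0% to 97.5% of 200 genes changed 4-fold were called, by comparison, and of 16999 unchanged genes 24 were called for RA minus CTR in GFP-negative cells, 16 for the fractions of CTR and 0 in the other 2 comparisons. With 1 library per group, variation between cultures could not be estimated for the simulation. It therefore gives no rate of false calls for the data themselves. Gene models were GENCODE on GRCh37 and promoters RefSeq. Of 91 wider genes 90 matched, and UHRF1 was not analysed here. The 49 genes and all lists were chosen with earlier results of these data known. Any of the 49 could be named, and from the wider lists the 2 highest and 2 lowest differences of each comparison.

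Alternatives were library size alone, DESeq2 1.42.0 size factors, upper quartiles, TMM factors of the 2 libraries compared, library size less the mitochondrial and 10 top genes, a pseudocount of 0.25 or 5 CPM, reads thinned to the smallest library, filters at 10 CPM and a 1.5-fold threshold. The thinning was a single random draw, so a move under it includes the sampling error of that draw.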

Additional observations from a re-analysis of the deposited data

Results flagged for a closer look

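Several genes differed in opposite directions in the 2 settings of the same contrast, with intervals that excluded a ratio of 1 in each setting. The contrast of the directions was not tested, since each group had 1 library. For RA minus CTR, log2(CPM + 1) of CCND2 differed by −0.17 in GFP-positive and by 0.21 in GFP-negative cells, that of CCND3 by −0.28 and 0.25, and that of CDK6 by −0.25 and 0.33. These are all genes of G1 at 25.3 CPM or more in every library, and their directions were the same under all 8 scalings, pseudocounts and thinned reads tried. For GFP-positive minus GFP-negative, MCM6 differed by 0.50 in CTR and by −0.37 in RA, and its level was lowest in the CTR GFP-negative library, at 22.8 CPM against 30.1 to 39.2 CPM in the other 3. CCNE2 differed by 1.02 in CTR and by −1.15 in RA, on a single read in the CTR GFP-negative library.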

How the results depend on the processing

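All differences called at 2-fold kept their direction under the 8 other scalings, pseudocounts and thinned reads, 9 of 9 and 7 of 7 for RA minus CTR in GFP-positive and GFP-negative cells, and 25 of 25 and 29 of 29 for GFP-positive minus GFP-negative in CTR and RA. The counts past 2-fold depended on how low values were treated. For RA minus CTR in GFP-positive cells the 9 genes became 0 with a pseudocount of 5 CPM, 4 with a mean of at least 10 CPM, 3 where either library had to reach 10 CPM, and 17 at 1.5-fold. In GFP-negative cells the 7 genes became 2, 1, 4 and 14 in the same order. For GFP-positive minus GFP-negative in CTR, the 1 higher gene became 0 with a pseudocount of 5 CPM and with either filter at 10 CPM, the 24 lower genes became 14 with that pseudocount and 13 with a mean of at least 10 CPM, and the G2/M median moved from −1.54 to −0.95 with that pseudocount. In RA the 29 lower genes became 18 with a mean of at least 10 CPM, and the G2/M median moved from −1.39 to −1.05 with that pseudocount. Over all alternatives the G2/M median for RA minus CTR lay between 0.34 and 0.81 in GFP-positive and between 0.42 and 0.56 in GFP-negative cells, and the S phase median between 0.02 and 0.09 and between −0.003 and 0.13. The median of all genes moved by more than 0.1 only for RA minus CTR in GFP-negative cells, by −0.12 with library size alone and also without mitochondrial and abundant genes. The sign turned for 6, 9, 2 and 0 of the 49 genes in the 4 comparisons as ordered at the start, none of them called. Depth limits the CTR GFP-negative library most, where CCNE2 rests on 1 read and CDCA8 on 11. The labels give no replicate numbers, and an additive model of treatment and fraction over the 4 libraries was not fitted.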

Other observations

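Among the G2/M genes with a RefSeq promoter, those with the CHR core had a median log2 difference of 0.77 for RA minus CTR in GFP-positive cells (10 genes, −0.14 to 1.48) and those without it one of 0.38 (9 genes, 0.07 to 1.27). In GFP-negative cells the medians were 0.54 and 0.55. For GFP-positive minus GFP-negative they were −1.78 and −1.47 in CTR and −1.29 and −1.47 in RA, so the order of the groups was not the same in the 4 comparisons. The ranges overlapped in each, and no test was made.

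Genes of the wider lists parted by promoter motif much as the 49 did. The CHR core was found in 17 of 32 other G2/M genes (53.1%) and in 2 of 23 other S phase genes (8.70%), and an E2F site in 3 of 32 (9.38%) and in 13 of 23 (56.5%). Among the other regulators, 4 of 21 held the CHR core and 11 of 21 an E2F site.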
